A study of Mus musculus with 9 samples.

Results

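The genes of glycolysis and of the hypoxia-inducible factor HIF-1 were followed in mouse peritoneal macrophages with and without the phosphatase SHP2. The set holds 35 genes, chosen by symbol, and all 35 were found by Ensembl gene identifier among the 54059 genes of the deposited expression table. They are 3 glucose transporters, 3 hexokinases, 7 genes of upper and 5 of lower glycolysis, 2 PFKFB enzymes, 2 genes of lactate production and export, 2 pyruvate dehydrogenase kinases, 3 genes of HIF-1 and its control, and 8 other targets of HIF-1. Expression was given as FPKM, a count of fragments scaled by gene length and library depth, so levels of different genes can be set side by side per length. A gene was tested when its mean FPKM over the 9 libraries was at least 1, which 33 of the 35 genes passed. The glucose transporter *Slc2a3* (mean FPKM 0.655) and *Ankrd37* (mean FPKM 0.467) fell below that level and were not tested.

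RNA was sequenced from 3 groups of 3 libraries, all from C57BL/6 mice aged 8 weeks by their labels. The mice had received 1 ml of starch broth in the peritoneum, cells were washed out 3 days later, and the adherent cells were cultured. WT libraries came from wild-type mice. KO libraries carry the labelled genotype SHP2lyz2-/-, which the study calls M-*Shp2* -/-: a floxed *Shp2* gene is deleted by Cre under *Lyz2*, which is active in monocytes, macrophages and granulocytes, so that other cells in a culture keep the gene. SHP099 libraries carry the wild-type genotype, and by a figure legend of the study their cells were pretreated for 2 h with 10 µM SHP099, an allosteric inhibitor of SHP2. The methods state 4 h of stimulation with IMQ (imiquimod, a TLR7 agonist) for WT and KO, and the same legend gives 4 h and 10 µg/ml for SHP099 and its control, while the labels do not mention IMQ. No library without IMQ was analysed here, so the effect of IMQ itself on these genes cannot be read from the data. The steps between small FPKM values correspond to a depth of 39841800 to 50979500 reads per library.

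The label of the KO group was checked on *Ptpn11*, the gene of SHP2. Its FPKM was 45.8, 44.0 and 40.0 in the WT libraries, 18.6, 17.8 and 18.9 in KO, and 43.0, 42.1 and 39.6 in SHP099. All KO libraries lay below all others, and WT and SHP099 overlapped. *Ptpn11* fell in KO against WT, with means of 43.3 ± 3.00 in WT and 18.4 ± 0.590 in KO (SD, n = 3) and a log2 fold change of −1.19 (standard error, SE, 0.10, limma adjusted p = 0.0168). Against SHP099 the KO libraries were lower by a log2 fold change of −1.13 (SE 0.08, limma adjusted p = 0.0109), and SHP099 against WT gave −0.05 (SE 0.09, limma adjusted p = 0.729). With 1 library fewer, the fold change against WT stayed between −1.24 and −1.15, but the adjusted p was 0.105 without WT_1, 0.125 without WT_2, 0.196 without KO_1 and 0.151 without KO_2. In KO against SHP099 it was 0.115 without KO_1, 0.0641 without KO_2, and 0.0534, 0.0942 and 0.0996 without SHP099_1, SHP099_2 and SHP099_3. Over 18 alternative settings these adjusted p values ranged from 0.00186 to 0.196 and from 0.00124 to 0.146, with the call lost in 6 of 18 in each comparison.

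All 8 listed macrophage markers had a mean FPKM of at least 1, from 2.48 for *Fcgr1*, which was under 1 in KO_1 and KO_2, to *Lyz2*, which encodes lysozyme and was the most abundant. The summed FPKM of the list was 10420, 13421 and 11189 in WT, 7595, 7468 and 8412 in KO, and 11778, 13005 and 13736 in SHP099. *Lyz2*, the locus that carries Cre in the KO mice, made up most of these sums, with an FPKM of 7440, 10228 and 7951 in WT and of 4863, 4743 and 5407 in KO. In KO against WT, limma called 0 of the 8 genes at an adjusted p of 0.05, with 2 at an unadjusted p under 0.05, beside 0.0873% and 10.5% of all genes tested. The list median was −0.44 in log2 fold change, or −0.59 relative to all genes. Of the 8 genes 7 lay below the median of all genes. *Lyz2* (−0.76) and *Mertk* (−0.97) were lower in every KO library than in any WT library, beside 3.07% of all genes. The log2 fold change was above 0 for 2 of the 8 genes, *Cd68* and *Csf1r*, and both overlapped between KO and WT. *Cd68* was at 1498, 1339 and 1294 in WT and at 1603, 1740 and 1227 in KO. *Csf1r* was at 58.2, 67.8 and 111 in WT and at 87.4, 71.8 and 176 in KO. In KO against SHP099 the list median was −0.30. There 3 of 8 markers were lower without overlap, beside 9.76% of all genes, and the smallest adjusted p in limma was 0.0555. *Csf1r*, the receptor of macrophage colony-stimulating factor, was the 1 macrophage marker past an adjusted p of 0.05, and rose in SHP099 against WT by a log2 fold change of 1.38 (SE 0.22, limma adjusted p = 0.0222). The list as a whole did not follow it, with a median log2 fold change of −0.23 in SHP099 against WT and 3 of 8 genes above 0. That call was lost without SHP099_1, SHP099_2 or SHP099_3 (limma adjusted p 0.0760, 0.116 and 0.0774, and 0.00394 to 0.116 over 18 alternatives, of which 6 lost it). In bulk RNA, fewer cells of a type and less RNA per cell cannot be told apart. The part of the Cre locus in the lower *Lyz2* values of KO, and so in the lower sums, was not tested.

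Fibroblast markers differed among libraries of the same group. Of 6 listed genes 5 had a mean FPKM of at least 1, with the collagen gene *Col1a1* the most abundant, and none was at 0 in all libraries. Their summed FPKM was 63.8, 303 and 39.8 in WT, 135, 51.4 and 586 in KO, and 361, 137 and 101 in SHP099. WT_2, KO_3 and SHP099_1 were therefore the highest of their groups. No fibroblast marker passed an adjusted or an unadjusted p of 0.05 in limma in any comparison.

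Of the other cell types reported here, which are not all that the cavity can hold, 4 of 6 markers of resident peritoneal macrophages were tested, with summed FPKM of 10.6 to 31.0 and *Prg4* the most abundant. For neutrophils 3 of 8 markers were tested, with sums of 99.7 to 174 and *Csf3r* the most abundant, while the defining marker *Ly6g* was at 0 in 7 of 9 libraries and at most 0.0362. The mesothelial list had 1 of 5 genes tested, *Wt1*, and sums of 1.82 to 9.54. No gene of the eosinophil, mast cell, dendritic cell, T and NK cell or erythroid lists reached a mean FPKM of 1, and no sum of these lists exceeded 6.50. All 5 proliferation genes were tested, with *Mki67* the most abundant and sums of 42.1 to 85.3. No gene of the lists in this paragraph passed an adjusted p of 0.05 in limma, and at an unadjusted p under 0.05 there were 1 neutrophil marker in KO against SHP099 and 1 proliferation gene in SHP099 against WT.

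Glycolysis turns glucose into pyruvate in the cytosol and yields ATP without oxygen, and macrophages activated through Toll-like receptors are known to rely on it. HIF-1 is a pair of the oxygen-labile subunit HIF-1α, encoded by *Hif1a*, and a stable partner, ARNT. Where prolyl hydroxylases of the EGLN family are inactive, HIF-1 accumulates, binds a short core motif in DNA and induces glucose transporters, glycolytic enzymes, lactate export and kinases that hold pyruvate back from the mitochondria.

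The genes spanned more than 3 orders of magnitude in level. Pyruvate kinase *Pkm*, the last enzyme of glycolysis, was the most abundant member (mean FPKM 928 over 9 libraries), followed by the aldolase *Aldoa* (711), the lactate dehydrogenase *Ldha* (465) and the enolase *Eno1* (448). Of the glucose transporters, *Slc2a6* stood at 265 and *Slc2a1* at 119. *Hk3* (320) was the leading hexokinase, above *Hk2* (133) and *Hk1* (48.9). *Hif1a* stood at 155. The tested HIF-1 targets outside the pathway were lower, from 54.1 for the angiogenic factor *Vegfa* to 4.15 for the vasodilator peptide gene *Adm*, and the hydroxylases *Egln1* (7.23) and *Egln3* (1.92) and the kinases *Pdk3* (6.35) and *Pdk1* (1.73) were among the lowest tested.

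The core motif of HIF-1 was common in the promoters of these genes. RefSeq (GRCm38.p6) gives windows of 300 bases, from 250 before to 50 after a transcript start, for 33 of the 35 members and 47 starts. *Slc2a3* and *Ndrg1* had no entry. The core ACGTG, read on both strands so that its reverse complement CACGT also counts, was present in at least 1 window of 24 members (72.7%), beside 21.8% of 27025 genes, and in 57.4% of the members' windows beside 19.6% of 32851 windows. The palindrome CACGTG, which contains the core on both strands, was found in 5 of the 47 windows, 1 each of *Bnip3*, *Hif1a*, *Ldha*, *Pfkfb3* and *Pfkm*, and in 7.15% of all windows. A match shows that the letters are there and not that HIF-1 binds. Shown here are windows of *Slc2a1*, *Hk2*, *Ldha* and *Bnip3*, which stand for uptake, the first step, lactate and a target outside glycolysis, and whose values are given in full. They lie at chr4:119108495-119108794 on the plus strand, chr6:82774405-82774704 on the minus strand, chr7:46845554-46845853 on the plus strand and chr7:138909457-138909756 on the minus strand, and capitals mark the core on either strand.
Slc2a1: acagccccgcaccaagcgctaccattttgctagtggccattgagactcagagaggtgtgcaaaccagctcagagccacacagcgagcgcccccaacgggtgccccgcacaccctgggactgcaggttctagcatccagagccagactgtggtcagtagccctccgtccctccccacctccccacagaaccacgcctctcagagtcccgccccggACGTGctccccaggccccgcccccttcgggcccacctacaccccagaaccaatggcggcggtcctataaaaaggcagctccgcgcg
Hk2: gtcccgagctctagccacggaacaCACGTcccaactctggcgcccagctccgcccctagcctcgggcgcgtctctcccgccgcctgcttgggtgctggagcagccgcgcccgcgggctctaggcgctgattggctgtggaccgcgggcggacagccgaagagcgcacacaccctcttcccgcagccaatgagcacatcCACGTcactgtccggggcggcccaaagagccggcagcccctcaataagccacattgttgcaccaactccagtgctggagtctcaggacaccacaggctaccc
Ldha: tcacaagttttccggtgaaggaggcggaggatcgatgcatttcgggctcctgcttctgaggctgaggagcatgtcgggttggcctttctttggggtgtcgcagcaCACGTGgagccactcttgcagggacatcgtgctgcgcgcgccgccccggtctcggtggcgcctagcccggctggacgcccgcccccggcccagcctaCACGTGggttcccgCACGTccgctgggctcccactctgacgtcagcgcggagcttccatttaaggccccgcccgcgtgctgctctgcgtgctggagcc
Bnip3: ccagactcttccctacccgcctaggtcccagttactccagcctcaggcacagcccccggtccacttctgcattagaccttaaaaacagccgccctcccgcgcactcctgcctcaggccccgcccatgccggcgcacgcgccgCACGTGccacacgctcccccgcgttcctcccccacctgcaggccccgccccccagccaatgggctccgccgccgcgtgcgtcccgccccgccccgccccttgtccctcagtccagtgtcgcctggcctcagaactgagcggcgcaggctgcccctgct
The windows hold 1 match in *Slc2a1*, 2 in *Hk2*, 3 in *Ldha*, of which 2 are the palindrome, and 1 palindrome in *Bnip3*. For the 23 tested members with it and the 9 without it, the median log2 fold change was −0.01 and 0.08 in KO against WT, 0.00 and −0.02 in SHP099 against WT, and 0.00 and −0.02 in KO against SHP099. In SHP099 against WT the values ranged from −0.79 to 0.85 with the core and from −0.35 to 0.47 without it. The 7 members at an unadjusted p under 0.05 in SHP099 against WT, named below, and both such members in KO against WT hold the core. Of the 5 such members in KO against SHP099, *Hif1a*, *Vegfa*, *Hk3* and *Higd1a* hold it and *Tpi1* does not. The core is present in 72.7% of the members with windows, and a link between the core and these changes was not tested.

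The comparison of KO with WT asks what loss of SHP2 in the myeloid cells changes after TLR7 stimulation. The hexokinase *Hk2* and the transporter *Slc2a1* had lower values in every KO library than in any WT library, the kinase *Pdk3* had higher values, and the other 30 tested members overlapped between the groups. These 3 genes are 9.09% of the members tested, beside 19.1% of all 11450 genes tested whose libraries did not overlap. By direction, 2 of 33 members were lower, beside 3.07% of all genes, and 1 of 33 was higher, beside 16% of all genes. At an adjusted p of at most 0.05, limma called 0 of 33 members, beside 0.0873% of all genes. At the stricter thresholds of the study (adjusted p 0.005 or less, log2 fold change 1 or more in either direction) it called 0 members, beside 0.00873%. At an unadjusted p under 0.05, limma gave 2 members, *Hk2* and *Slc2a1*, both lower in KO, beside 10.5% of all genes. The median log2 fold change of the members was 0.05 and that of all genes tested 0.15. These p values rest on the spread between libraries, and the labels do not say whether libraries of a group came from separate mice.

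The comparison of SHP099 with WT asks what inhibition of the enzyme changes under the same stimulus, and it uses the same WT libraries as the comparison of KO with WT. *Hk2* fell, and it was the 1 member of 33 (3.03%) at an adjusted p of at most 0.05 in limma, beside 6.96% of all genes tested. No member passed the stricter thresholds, beside 0.166% of all genes. At an unadjusted p under 0.05, limma gave 7 members, beside 26.7% of all genes, with higher values of *Pfkm*, *Aldoa* and *Bnip3* and lower values of *Hk2*, *Slc2a1*, *Ldha* and *Hif1a* in SHP099. The libraries did not overlap in 8 members (24.2%), 5 higher and 3 lower in SHP099, beside 34.6% of all genes. By direction, 27.9% of all genes were higher and 6.77% lower. The median log2 fold change of the members was 0.00 and that of all genes tested 0.13. WT_3 bears on these values: its scaling factor by the median of ratios was 0.849, against 0.979 to 1.10 in the other libraries, and its median log2 deviation from the mean of each gene was −0.21 over all genes and −0.32 over the members. Without WT_3, limma called 5 members in SHP099 against WT (*P4ha1*, *Pfkm*, *Hk2*, *Tpi1* and *Slc2a1*), beside 11.1% of all genes, and without WT_2, SHP099_1, SHP099_2 or SHP099_3 it called 0.

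Across all genes, median-of-ratios scaling moved the median log2 fold change from 0.15 to 0.01 in KO against WT and from 0.13 to 0.00 in SHP099 against WT. Fold changes of the members are therefore also given relative to the median of all genes. By that measure 23 of 33 members lay below the median in KO and 21 of 33 in SHP099, and the member median lay 0.10 and 0.12 below it. The signs of *Egln1*, *Eno1*, *Ndrg1*, *Pdk1*, *Pfkfb4*, *Pfkm*, *Pkm* and *Tpi1* in KO, and of *Eno1*, *Hk1*, *Hk3*, *Ndrg1* and *Pgam1* in SHP099, turn under median-of-ratios scaling or quantile normalization, and are not read as directions.

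**Figure D1:**
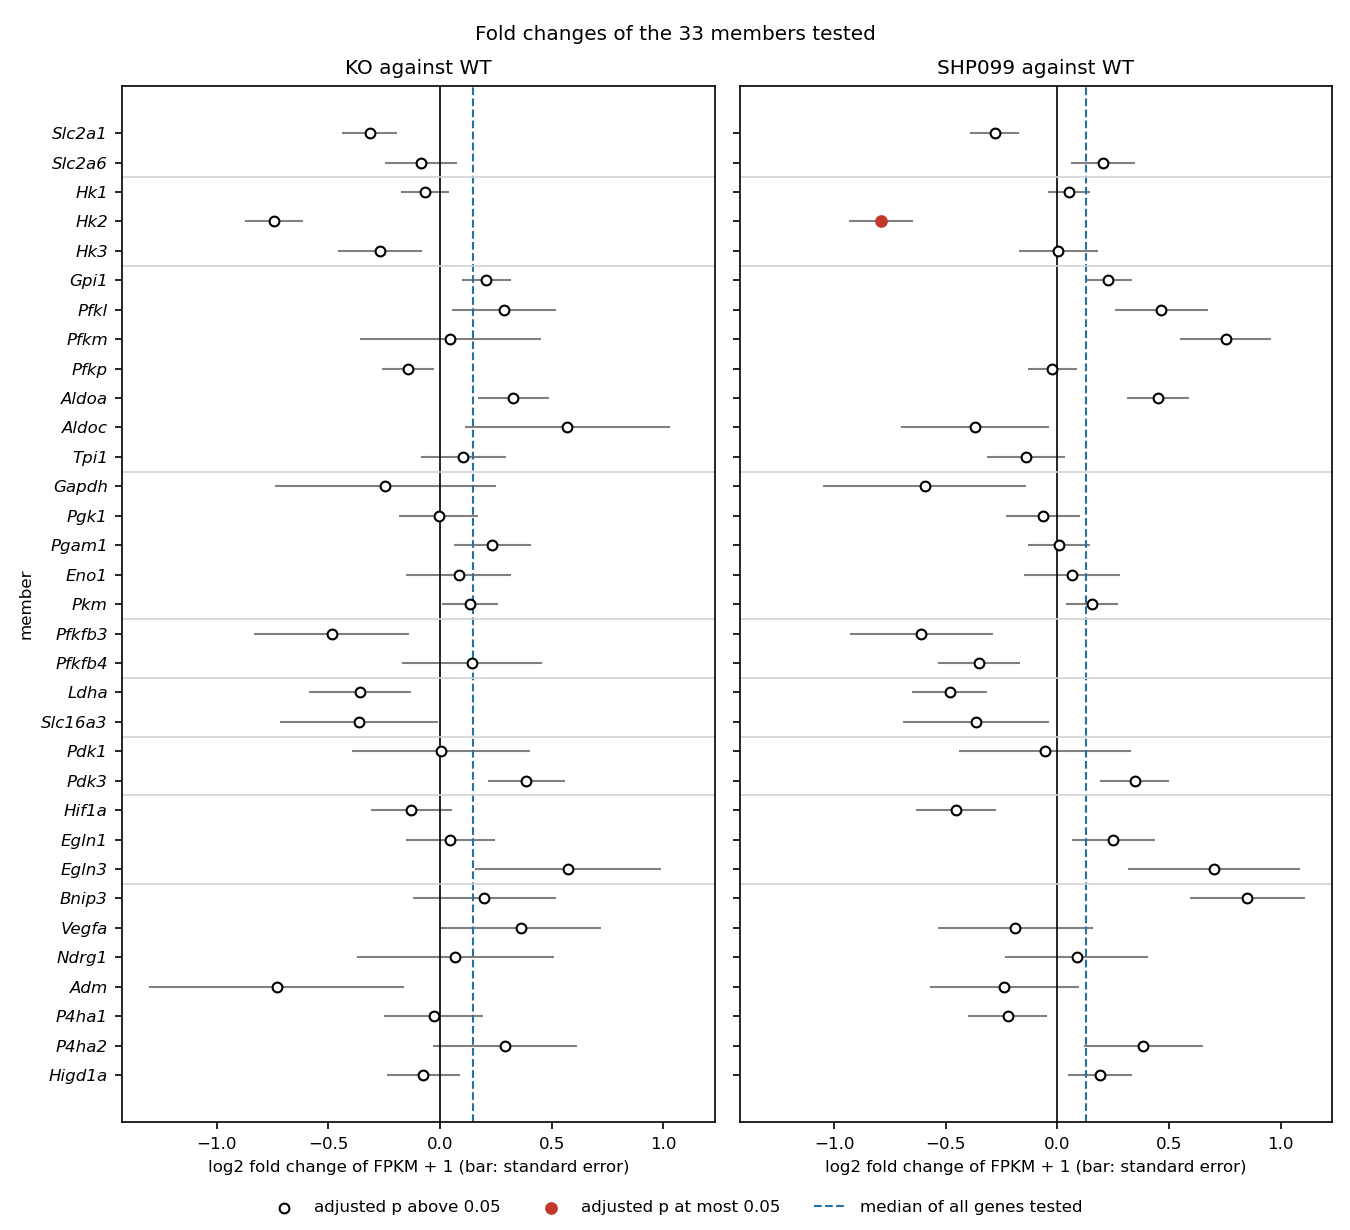
Log2 fold changes of FPKM + 1 for the 33 members tested, in KO against WT (left) and SHP099 against WT (right), ordered by role, with bars for the standard error and a dashed line at the median of all genes tested (0.15 and 0.13). *Hk2* in SHP099, at −0.79, is the 1 filled point, with an adjusted p of 0.0276 in limma.

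Hexokinases phosphorylate glucose on entry and hold it in the cell, and *Hk2* is the inducible, HIF-1-responsive isoform. *Hk2* (ENSMUSG00000000628, chr6:82725025-82774454, minus strand) had an FPKM of 156, 206 and 190 in the WT libraries, 107, 101 and 119 in KO, and 124, 92.6 and 101 in SHP099. Every WT library lay above every KO and every SHP099 library, and KO and SHP099 overlapped. In SHP099 against WT it fell from 184 ± 25.6 to 106 ± 16.1 (SD, n = 3), a change of −42.3% and a log2 fold change of −0.79 (SE 0.14, limma adjusted p = 0.0276), or −0.92 relative to all genes. In KO the mean was 109 ± 9.06 (SD, n = 3), 40.8% below WT, with a log2 fold change of −0.74 (SE 0.13, limma adjusted p = 0.277), or −0.89 relative to all genes. It held rank 33 of 11450 by p in KO against WT and rank 356 in SHP099 against WT. KO against SHP099 gave 0.05 (SE 0.12, limma adjusted p = 0.896), with −0.02 without KO_3, −0.05 without SHP099_2 and 0.16 without SHP099_1.

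The direction of *Hk2* was the same in all 18 alternatives of each comparison with WT, from −0.93 to −0.70 in SHP099 and from −0.90 to −0.66 in KO. Its call in SHP099 was lost in 7 of 18 alternatives: the limma adjusted p was 0.0577, 0.132 and 0.0900 without SHP099_1, SHP099_2 and SHP099_3, 0.0595 without WT_2, 0.106 with no filter on low FPKM, 0.0621 with the replicate number as a block and 0.0885 without WT_2 and SHP099_1, the last chosen after seeing the data (0.0186 to 0.132 over 18 alternatives). In KO the adjusted p ranged from 0.122 to 0.890.

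*Hk3*, the hexokinase of myeloid cells, had an FPKM of 304, 280 and 446 in WT, 251, 307 and 280 in KO, and 356, 305 and 350 in SHP099. WT_3 stood above the other libraries, and all groups overlapped. Its log2 fold change was −0.27 in KO against WT (SE 0.19, limma adjusted p = 0.545), 0.00 in SHP099 against WT (SE 0.18, limma adjusted p = 0.993) and −0.27 in KO against SHP099 (SE 0.10, limma adjusted p = 0.371). Without WT_3 the first and second were −0.07 and 0.21. *Hk1*, the broadly expressed isoform, ranged from 42.7 to 55.1 over the 9 libraries, with log2 fold changes of −0.07 in KO and 0.05 in SHP099.

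The share of each isoform in the summed hexokinase FPKM does not depend on the scaling of a library. *Hk2* made up 30.7%, 38.2% and 27.8% of hexokinase FPKM in WT, 26.1%, 22.2% and 26.9% in KO, and 23.2%, 20.7% and 20.3% in SHP099. All KO and SHP099 shares lay below all WT shares. The mean share was 32.3 ± 5.37% in WT, 25.1 ± 2.50% in KO and 21.4 ± 1.55% in SHP099 (SD, n = 3), with a two-sided exact permutation p of 0.1 for each group against WT. That is the smallest p that 3 against 3 libraries allow, and over the 42 tests of 8 isoform families the adjusted p was 0.6. Shares within a family depend on each other, so the share of *Hk3* is not a result separate from that of *Hk2*. The *Hk3* FPKM itself gave a log2 fold change of 0.00 in SHP099. The share of *Hk3* was 59.1 ± 6.78% in WT and 68.3 ± 1.78% in SHP099 (SD, n = 3), without overlap and with the same exact permutation p of 0.1. The only other share at that p was that of *P4ha1* against *P4ha2*, with 85.0 ± 2.36% in WT and 77.7 ± 2.35% in SHP099 (SD, n = 3, exact permutation p = 0.1, adjusted p = 0.6).

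**Figure D2:**
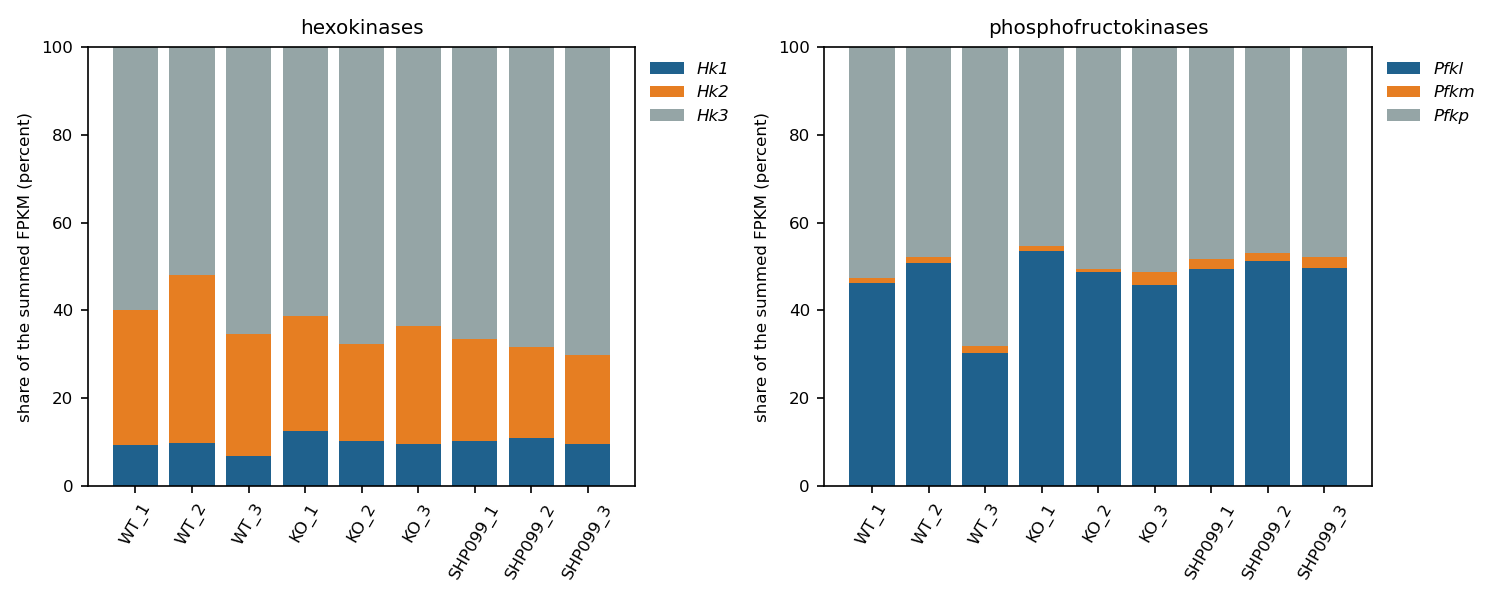
Share of each isoform in the summed FPKM of the hexokinases (left) and phosphofructokinases (right), in percent, with 1 bar per library. The *Hk2* share lies between 27.8% and 38.2% in WT and between 20.3% and 26.9% in the other 6 libraries.

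Glucose enters through the transporters of the SLC2A family, and *Slc2a1* encodes GLUT1, the basal and HIF-1-inducible carrier. *Slc2a1* (ENSMUSG00000028645, chr4:119108711-119137983, plus strand) had an FPKM of 140, 152 and 118 in WT, 113, 98.9 and 115 in KO, and 117, 104 and 114 in SHP099. All WT libraries lay above all others, with WT_3 (118) and SHP099_1 (117) close together. The mean was 136 ± 17.3 in WT, 109 ± 8.87 in KO and 112 ± 6.43 in SHP099 (SD, n = 3). The log2 fold change was −0.32 in KO (SE 0.12, limma adjusted p = 0.465) and −0.28 in SHP099 (SE 0.11, limma adjusted p = 0.158), or −0.46 and −0.41 relative to all genes. In SHP099 it passed an adjusted p of 0.05 in limma with median-of-ratios scaling (0.0445) and without WT_3 (0.0373), within a range of 0.0373 to 0.513 over 18 alternatives. *Slc2a6*, a transporter of lysosomal membranes, ranged from 206 to 332, with log2 fold changes of −0.09 in KO and 0.20 in SHP099. *Slc2a3* stayed between 0.476 and 0.911.

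**Figure D3:**
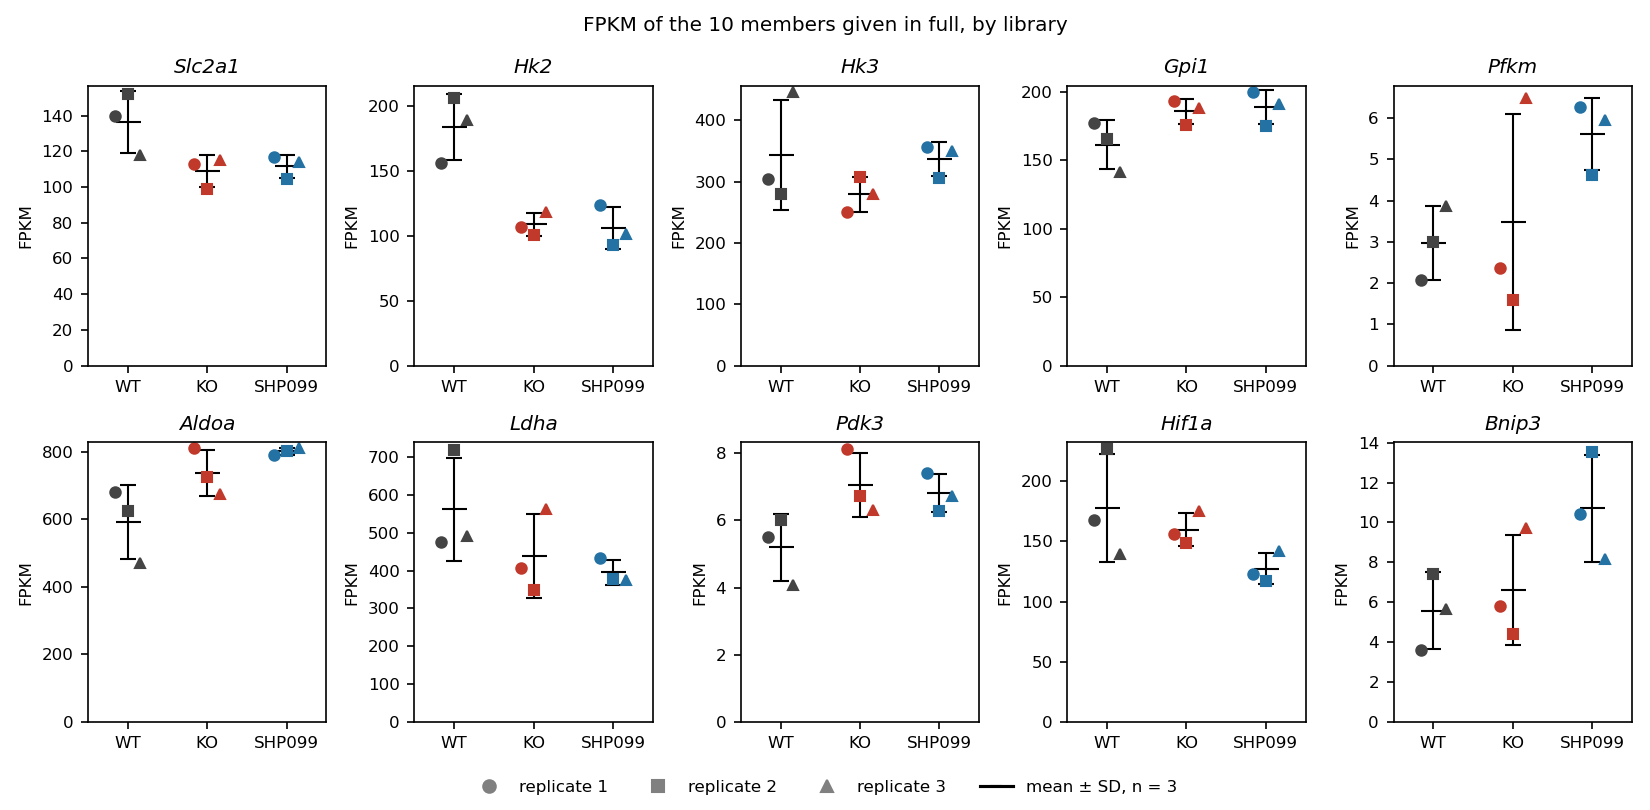
FPKM of the 10 members given in full, in each of the 9 libraries, on axes that start at 0, with symbols for the replicate number and lines for the mean and SD (n = 3). For *Hk2* the WT libraries sit between 156 and 206 and the other 6 between 92.6 and 124.

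In upper glycolysis, phosphofructokinase catalyses the committed step and aldolase splits the sugar. The muscle-type subunit *Pfkm* (ENSMUSG00000033065, chr15:98092589-98132451, plus strand) was low, at 2.06, 2.99 and 3.87 in WT, 2.37, 1.60 and 6.48 in KO, and 6.27, 4.62 and 5.96 in SHP099. All SHP099 libraries lay above all WT libraries, and KO_3 stood apart from the other KO libraries at the level of SHP099. In SHP099 the mean was 5.62 ± 0.876, against 2.98 ± 0.904 in WT (SD, n = 3), a log2 fold change of 0.75 (SE 0.20, limma adjusted p = 0.0688), or 0.63 relative to all genes. The adjusted p was 0.0321 without WT_3 (0.0321 to 0.323 over 17 alternatives). In KO against WT the log2 fold change of *Pfkm* was 0.05 (SE 0.41, limma adjusted p = 0.958), with −0.40 without KO_3, −0.13 without WT_1 and 0.36 without KO_2. The major subunits *Pfkl* (65.5 to 133) and *Pfkp* (112 to 147) had log2 fold changes of 0.29 and −0.14 in KO and of 0.47 and −0.02 in SHP099. For *Pfkl*, all SHP099 libraries (127 to 133) lay above all WT libraries (65.5 to 122).

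*Aldoa* (ENSMUSG00000030695, chr7:126795234-126800751, minus strand) had an FPKM of 682, 625 and 471 in WT, 811, 727 and 675 in KO, and 791, 802 and 810 in SHP099. The SHP099 libraries were close together and above all WT libraries, while KO_3 lay below WT_1. The mean was 593 ± 109 in WT and 801 ± 9.78 in SHP099 (SD, n = 3), which did not pass the test at a log2 fold change of 0.45 (SE 0.14, limma adjusted p = 0.0971), or 0.32 relative to all genes. In KO it was 738 ± 68.9 (SD, n = 3), with 0.33 (SE 0.16, limma adjusted p = 0.479). Without WT_3 the values were 0.29 in SHP099 and 0.17 in KO. A second gene of the same symbol in the annotation, with 2 transcripts, stayed at 0.424 or below.

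*Gpi1*, the isomerase that turns glucose phosphate into fructose phosphate, had an FPKM of 177, 165 and 142 in WT, 194, 176 and 188 in KO, and 200, 175 and 192 in SHP099. WT_1 overlapped with both other groups, and WT_2 and WT_3 lay below them. Its log2 fold change was 0.21 in KO (SE 0.11, limma adjusted p = 0.493) and 0.23 in SHP099 (SE 0.10, limma adjusted p = 0.215), which is 0.06 and 0.10 relative to all genes, with 0.12 and 0.14 without WT_3. The minor aldolase *Aldoc* (0.736 to 5.39) had log2 fold changes of 0.57 and −0.37 in KO and SHP099, and the triose phosphate isomerase *Tpi1* (118 to 190) had 0.10 and −0.14. None of the 7 upper genes passed an adjusted p of 0.05 in limma in KO or SHP099 against WT, and at an unadjusted p under 0.05 there were 0 in KO and 2 in SHP099, beside 10.5% and 26.7% of all genes.

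In lower glycolysis, where ATP is gained, the libraries of KO and of SHP099 overlapped with those of WT for all 5 genes. In both comparisons limma gave 0 of 5 at an adjusted p of 0.05 and 0 of 5 at an unadjusted p under 0.05. The log2 fold changes in KO and SHP099 were −0.01 and −0.06 for the phosphoglycerate kinase *Pgk1* (125 to 195), 0.23 and 0.01 for the mutase *Pgam1* (144 to 223), 0.08 and 0.07 for *Eno1* (298 to 532), and 0.13 and 0.15 for *Pkm* (765 to 1059). *Gapdh*, the dehydrogenase often used as a reference gene, stood at 63.4, 29.3 and 14.4 in WT, 28.2, 30.1 and 18.9 in KO, and 20.6, 18.7 and 19.5 in SHP099. Its log2 fold changes, −0.25 in KO (SE 0.49, limma adjusted p = 0.813) and −0.59 in SHP099 (SE 0.45, limma adjusted p = 0.454), were the farthest from 0 of the 5 genes. The levels were below those of the other 4 genes and spread most within WT. The annotation holds 78 copies with at least 95% identity to a *Gapdh* transcript over at least 200 bases, 75 of them pseudogenes, and their summed mean FPKM of 25.8 was 95.6% of the 27.0 of *Gapdh*. How reads that match several copies were assigned was not stated, so the level of *Gapdh* is uncertain.

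The PFKFB enzymes make and remove the activator of phosphofructokinase. *Pfkfb3*, the isoform with high kinase activity, was at 71.6 in WT_2 and between 24.6 and 34.6 in the other 8 libraries. Its log2 fold changes were −0.48 in KO (SE 0.35) and −0.61 in SHP099 (SE 0.32), with limma adjusted p of 0.551 and 0.272. *Pfkfb4* ranged from 5.95 to 13.0, with 0.14 in KO and −0.35 in SHP099.

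Lactate dehydrogenase A reduces pyruvate to lactate, and *Slc16a3* encodes MCT4, which exports it. *Ldha* (ENSMUSG00000063229, chr7:46841475-46855627, plus strand) had an FPKM of 475, 720 and 491 in WT, 406, 349 and 562 in KO, and 435, 377 and 375 in SHP099. All SHP099 libraries lay below all WT libraries, and KO_3 lay above WT_1 and WT_3. The mean was 562 ± 137 in WT, 439 ± 110 in KO and 395 ± 34.0 in SHP099 (SD, n = 3). The log2 fold change was −0.36 in KO (SE 0.23, limma adjusted p = 0.527) and −0.48 in SHP099 (SE 0.17, limma adjusted p = 0.124), or −0.50 and −0.61 relative to all genes. Without WT_2 it was −0.17 in KO and −0.29 in SHP099, and without KO_3 it was −0.55 in KO. *Slc16a3* was at 73.0 in WT_2 and between 26.4 and 46.4 elsewhere, with −0.36 in each comparison with WT (limma adjusted p 0.631 and 0.523).

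Pyruvate dehydrogenase kinases hold pyruvate back from the TCA cycle. *Pdk3* had an FPKM of 5.49, 6.01 and 4.08 in WT, 8.12, 6.72 and 6.32 in KO, and 7.42, 6.29 and 6.73 in SHP099. All WT libraries lay below all others. The mean was 5.19 ± 1.00 in WT, 7.05 ± 0.946 in KO and 6.81 ± 0.571 in SHP099 (SD, n = 3). Its log2 fold change was 0.39 in KO (SE 0.17, limma adjusted p = 0.478) and 0.35 in SHP099 (SE 0.15, limma adjusted p = 0.205), or 0.24 and 0.22 relative to all genes, with 0.25 and 0.21 without WT_3. *Pdk1*, the classical HIF-1 target of the family, was low (0.431 to 2.68), with 0.00 in KO and −0.06 in SHP099.

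*Hif1a* (ENSMUSG00000021109, chr12:73901375-73947530, plus strand) had an FPKM of 168, 227 and 139 in WT, 156, 148 and 175 in KO, and 123, 117 and 142 in SHP099. SHP099_3 overlapped with WT_3, and all SHP099 libraries lay below all KO libraries. The mean was 178 ± 44.7 in WT, 160 ± 13.8 in KO and 127 ± 13.0 in SHP099 (SD, n = 3). The log2 fold change was −0.45 in SHP099 (SE 0.18, limma adjusted p = 0.158), or −0.58 relative to all genes, and −0.13 in KO (SE 0.18, limma adjusted p = 0.729), and without WT_2 these were −0.27 and 0.06. KO against SHP099 gave 0.33 (SE 0.10, limma adjusted p = 0.331). The oxygen sensor *Egln1* ranged from 4.75 to 8.33, with 0.05 in KO and 0.25 in SHP099. *Egln3*, itself induced by HIF-1, ranged from 0.274 to 3.65, with 0.57 and 0.70 and adjusted p of 0.556 and 0.298 in limma. HIF-1α is controlled mainly through its protein, which these data do not measure.

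Among the 7 tested members that are HIF-1 targets outside glycolysis, *Bnip3*, a mitochondrial protein of mitophagy, had the largest log2 fold change in SHP099. *Bnip3* (ENSMUSG00000078566, chr7:138890836-138909519, minus strand) had an FPKM of 3.60, 7.44 and 5.68 in WT, 5.79, 4.39 and 9.72 in KO, and 10.4, 13.5 and 8.17 in SHP099. All SHP099 libraries lay above all WT libraries, and KO_3 was the highest of KO. The mean was 5.57 ± 1.92 in WT, 6.63 ± 2.76 in KO and 10.7 ± 2.69 in SHP099 (SD, n = 3). The log2 fold change was 0.85 in SHP099 (SE 0.26, limma adjusted p = 0.0923), or 0.72 relative to all genes, and 0.20 in KO (SE 0.32, limma adjusted p = 0.760), where it was −0.04 without WT_1, −0.08 without KO_3 and 0.42 without KO_2. Of its exons 22.3% lie under a gene on the opposite strand, and the sources used here do not state which strand was counted.

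The other targets overlapped between each group and WT. *Vegfa* was at 89.5 in WT_2 and between 36.1 and 75.5 elsewhere, with log2 fold changes of 0.36 in KO and −0.19 in SHP099. *Ndrg1*, a stress-response gene, ranged from 10.9 to 34.9 with the highest value in KO_3, and gave 0.07 and 0.09. *Adm* was at 1.44 and 1.18 in KO_1 and KO_2 but at 7.05 in KO_3, and gave −0.73 (SE 0.57) and −0.24 (SE 0.33). The collagen prolyl hydroxylases *P4ha1* (17.8 to 29.1) and *P4ha2* (2.53 to 7.22) gave −0.03 and 0.29 in KO and −0.22 and 0.38 in SHP099. *Higd1a*, a mitochondrial protein induced by hypoxia, ranged from 25.1 to 37.3 and gave −0.08 and 0.19, and *Ankrd37* stayed between 0.201 and 0.670. For these and *Bnip3*, 7 tested genes, limma adjusted p values were at least 0.568 in KO and at least 0.0923 in SHP099, with 0 and 1 genes at an unadjusted p under 0.05.

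The direct comparison of KO with SHP099 asks where loss and inhibition of SHP2 differ. *Tpi1* and *Hif1a* were higher and *Pfkp*, *Egln1* and *Higd1a* lower in all KO than in all SHP099 libraries, which is 5 of 33 members (15.2%) beside 17.7% of all genes. By direction, 7.9% of all genes were higher and 9.76% lower in KO. At an adjusted p of at most 0.05, limma called 0 members, beside 0.0699% of all genes, and at the stricter thresholds 0, beside 0% of all genes. At an unadjusted p under 0.05, limma gave 5 members, beside 12.6% of all genes: *Tpi1*, *Hif1a* and *Vegfa* with higher and *Hk3* and *Higd1a* with lower values in KO. The member median was −0.02 and the median of all genes 0.02. This comparison rests on KO_3. Without it, limma called 8 members (*P4ha1*, *Pfkm*, *Adm*, *Bnip3*, *Pfkfb4*, *Aldoc*, *Gapdh* and *Pgam1*), beside 2277 of all genes (19.9%). The log2 fold change was then −1.15 for *Pfkm* (limma adjusted p = 0.00935, against 0.475 with all libraries and 0.00935 to 0.850 over 17 alternatives) and −0.93 for *Bnip3* (0.0285, against 0.402 with all libraries and 0.0285 to 0.798 over 18 alternatives). Without KO_2 they were −0.39 and −0.43, with limma adjusted p of 0.850 and 0.782.

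The HIF-1 group moved with single libraries more than with the groups. Over the 10 tested members of HIF-1, its control and its other targets, the median log2 deviation from the mean of each gene was −0.26, 0.27 and −0.32 in WT_1 to WT_3, 0.04, −0.34 and 0.37 in KO_1 to KO_3, and 0.15, 0.10 and −0.07 in SHP099_1 to SHP099_3. Over 25 other HIF-1 targets it was −0.31, 0.39 and −0.12 in WT, −0.17, −0.36 and 0.49 in KO, and 0.16, −0.03 and −0.13 in SHP099. In each group the highest library was the same for both lists, and it was also the library with the highest fibroblast sum given above: WT_2 (303), KO_3 (586) and SHP099_1 (361). The mesothelial gene *Wt1* (0.65, 1.07 and 0.63) and the 5 proliferation genes (0.42, 0.90 and 0.42) also had their highest medians in these libraries. For the 23 glycolysis members tested the medians were 0.07, 0.13 and −0.33 in WT, 0.11, −0.04 and −0.06 in KO, and 0.05, −0.12 and 0.01 in SHP099, so that the highest library was the same in WT and SHP099 but not in KO. When WT_2, KO_3 and SHP099_1 were left out together, an alternative chosen after seeing the data, limma called 0 members in KO against WT, 0 in SHP099 against WT and 9 in KO against SHP099, beside 0.0175%, 0.437% and 17.9% of all genes. The part of fibroblast or mesothelial RNA and of proliferation in these values was not tested.

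**Figure D4:**
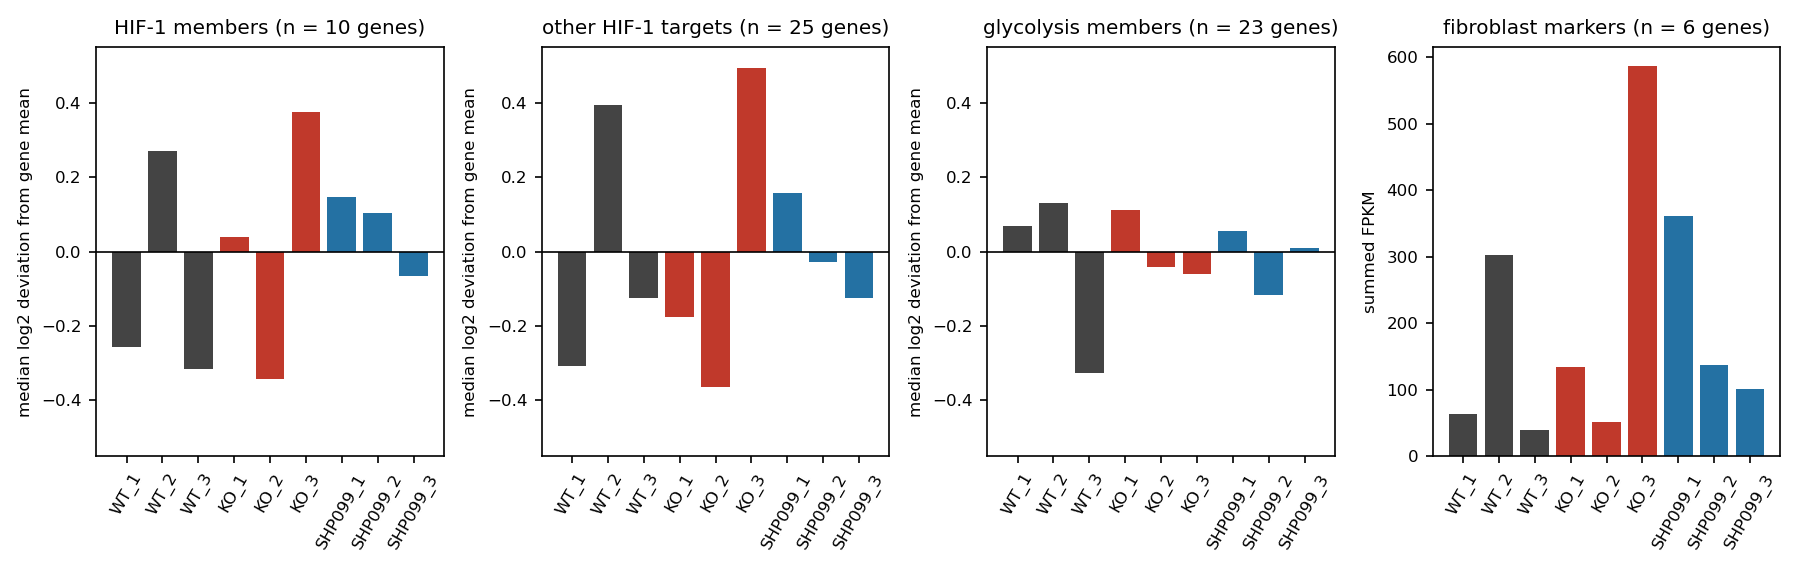
Median log2 deviation from the mean of each gene in each library, for the 10 tested HIF-1 members, 25 other HIF-1 targets and 23 tested glycolysis members, and (right) the summed FPKM of 6 fibroblast markers. WT_2, KO_3 and SHP099_1 are the highest of their groups in the fibroblast sum (303, 586 and 361) and in both HIF-1 lists.

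Other genes of the same pathways were taken from 5 lists, chosen with earlier results of these data known. Of 23 other glycolysis isoforms 11 were tested, of 10 other HIF regulators 8, of 30 other HIF-1 targets 25, and all 7 genes of the pentose phosphate pathway and all 26 of pyruvate entry and the TCA cycle. In KO against WT, limma called 0 genes of any list at an adjusted p of 0.05 or less, and at an unadjusted p under 0.05 it gave 4, 0, 3, 4 and 1, beside 0.0873% and 10.5% of all genes. In KO against SHP099 it also called 0, with 4, 3, 6, 1 and 1 at an unadjusted p under 0.05, beside 0.0699% and 12.6%. In SHP099 against WT it called 3, 0, 3, 1 and 0 genes, with 4, 2, 9, 5 and 8 at an unadjusted p under 0.05, beside 6.96% and 26.7%. Of the 3 called isoforms, *Pdk2* passed the filter on mean FPKM only through the groups where it is higher, as given below. The count of 3 is therefore not read against the share of all genes. The median log2 fold changes in SHP099 were 0.31, 0.21, 0.01, 0.37 and 0.15, beside 0.13 for all genes.

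Among the other isoforms, the neuronal-type enolase *Eno2* fell in SHP099 and the intracellular transporter *Slc2a8* rose. *Eno2* had an FPKM of 78.9, 48.9 and 54.3 in WT and 28.0, 32.5 and 23.5 in SHP099, without overlap, and a log2 fold change of −1.07 (SE 0.20, limma adjusted p = 0.0278). It lost the call without SHP099_1, SHP099_2 or SHP099_3 (limma adjusted p 0.108, 0.109 and 0.0897, and 0.0194 to 0.114 over 18 alternatives, of which 6 lost it). *Eno2* in KO was at 65.4, 95.5 and 29.6 and overlapped with WT. Its log2 fold change in KO against WT was −0.06 (SE 0.42, limma adjusted p = 0.950). *Slc2a8* was at 2.38, 2.47 and 2.23 in WT and at 5.80, 5.09 and 4.36 in SHP099, a log2 fold change of 0.85 (SE 0.14, limma adjusted p = 0.0224). The WT libraries were close together and far below SHP099, yet without WT_1 or any SHP099 library its adjusted p was 0.0616, 0.105, 0.126 and 0.0584 (0.0203 to 0.175 over 17 alternatives, of which 6 lost the call). *Slc2a8* in KO was at 4.13, 2.70 and 3.85, above every WT library. Its log2 fold change in KO against WT was 0.43 (SE 0.17, limma adjusted p = 0.467). The kinase *Pdk2* was below an FPKM of 1 in every WT library and passed the filter, with a mean of 1.15, only through the groups where it is higher, so its adjusted p is not read as a rise. It was at 0.216, 0.398 and 0.452 in WT, 1.04, 0.908 and 1.26 in KO, and 2.70, 2.12 and 1.27 in SHP099. Its log2 fold change was 1.13 in SHP099 (SE 0.22, limma adjusted p = 0.0325) and 0.61 in KO (SE 0.17, limma adjusted p = 0.454). All WT libraries lay below all others. Without WT_1, WT_2 or any SHP099 library the adjusted p in SHP099 was 0.0863, 0.0643, 0.122, 0.155 and 0.0518, with no filter 0.101 and with the replicate number as a block 0.0621 (0.0198 to 0.182 over 17 alternatives, of which 8 lost the call).

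Among the other HIF-1 targets, *Bhlhe40*, a transcriptional repressor, fell in SHP099, the heme oxygenase *Hmox1* rose, and the histone demethylase *Kdm3a* rose with a call that most alternatives lost. *Bhlhe40* had an FPKM of 177, 191 and 180 in WT, 143, 159 and 94.1 in KO, and 89.0, 68.9 and 89.6 in SHP099. All WT libraries lay above all others. Its log2 fold change was −1.15 in SHP099 (SE 0.12, limma adjusted p = 0.00769) and −0.50 in KO (SE 0.19, limma adjusted p = 0.465). It kept an adjusted p of at most 0.05 in SHP099 with any 1 library left out (0.0108 to 0.0307), and ranged from 0.00637 to 0.0534 over 18 alternatives. *Hmox1* was at 525, 563 and 341 in WT, 606, 523 and 1226 in KO, and 873, 1105 and 897 in SHP099, with a log2 fold change of 1.03 in SHP099 (SE 0.20, limma adjusted p = 0.0325). KO_3 stood with the SHP099 libraries, and KO against WT gave 0.65 (SE 0.35, limma adjusted p = 0.497). Without WT_1 or any SHP099 library the call in SHP099 was lost (limma adjusted p 0.0652, 0.105, 0.148 and 0.0900, and 0.0169 to 0.148 over 18 alternatives, of which 7 lost it). *Kdm3a* was at 26.6, 28.2 and 31.1 in WT and at 39.1, 37.4 and 39.2 in SHP099, a log2 fold change of 0.42 (SE 0.09, limma adjusted p = 0.0388). Under median-of-ratios scaling its adjusted p was 0.239, and without WT_1, WT_2 or any SHP099 library it was 0.0883, 0.0902, 0.160, 0.158 and 0.110 (0.0166 to 0.298 over 18 alternatives, of which 12 lost the call). *Kdm3a* in KO overlapped with WT, with a log2 fold change of 0.07 (SE 0.13, limma adjusted p = 0.778).

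The pentose phosphate pathway branches off after hexokinase and supplies NADPH and ribose. Its 7 genes had log2 fold changes above 0 in each comparison with WT, from 0.12 to 0.63 in KO and from 0.14 to 0.89 in SHP099, and 6 and 7 of them lay above the median of all genes. In SHP099 6 of 7 genes lay above WT in every library (85.7%, beside 27.9% of all genes that did so), and in KO 3 of 7 (42.9%, beside 1835 of all 11450 genes). Both comparisons use the same WT libraries, and the list was chosen with earlier results of these data known. The difference between these shares and those of all genes was not tested. *Pgd*, the phosphogluconate dehydrogenase, had an FPKM of 375, 282 and 204 in WT, 462, 436 and 395 in KO, and 514, 542 and 497 in SHP099. The groups did not overlap, with WT lowest and SHP099 highest. *Pgd* rose in SHP099 against WT, with means of 287 ± 85.8 in WT and 518 ± 22.6 in SHP099 (SD, n = 3) and a log2 fold change of 0.89 (SE 0.20, limma adjusted p = 0.0472). It lost the call without WT_2, SHP099_1, SHP099_2 or SHP099_3 (limma adjusted p 0.0889, 0.154, 0.184 and 0.114) and under median-of-ratios scaling (0.0568), within a range of 0.0301 to 0.214 over 18 alternatives, of which 10 lost it. In KO it was 0.63 (SE 0.22, limma adjusted p = 0.465). The log2 fold changes in KO and SHP099 were 0.42 and 0.38 for the first enzyme *G6pdx*, 0.32 and 0.30 for *Pgls*, 0.16 and 0.14 for *Rpe*, 0.12 and 0.29 for *Rpia*, 0.36 and 0.37 for *Tkt*, and 0.51 and 0.52 for *Taldo1*. WT_3 was the lowest WT library for 6 of the 7 genes.

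**Figure D5:**
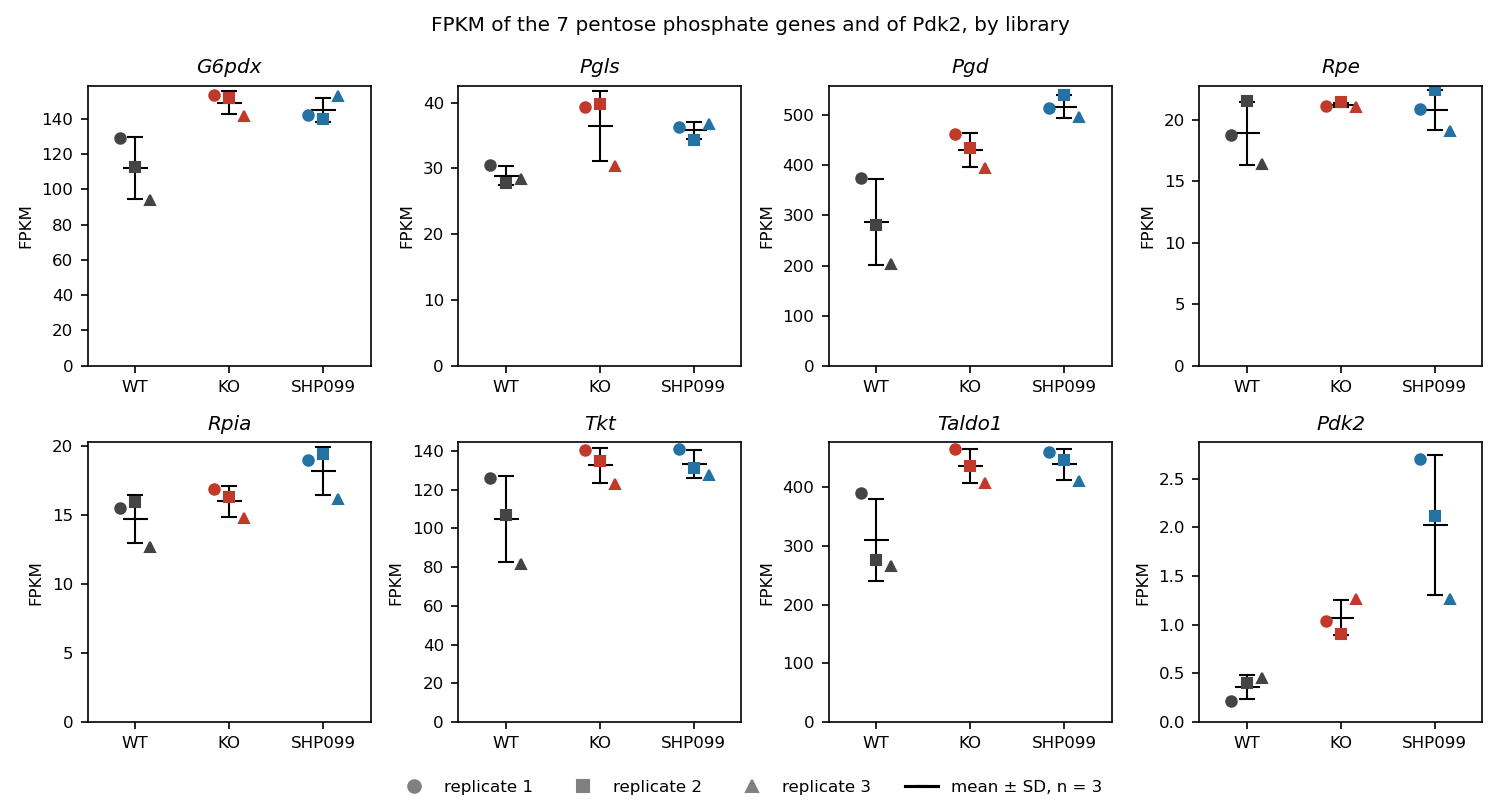
FPKM of the 7 pentose phosphate genes and of *Pdk2* in each of the 9 libraries, on axes that start at 0, with lines for the mean and SD (n = 3). *Pgd* lies between 204 and 375 in WT, between 395 and 462 in KO and between 497 and 542 in SHP099.

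The genes of pyruvate entry and the TCA cycle had median log2 fold changes of 0.17 in KO and 0.15 in SHP099, near those of all genes (0.15 and 0.13). In SHP099 the libraries of 11 of 26 genes lay above WT (42.3%, beside 27.9% of all genes), and the smallest adjusted p in limma was 0.0505. Of the HIF regulators outside the members, 3 of 8 lay above WT in every SHP099 library and 0 of 8 in KO (beside 27.9% and 1835 of all 11450 genes), and the smallest adjusted p against WT was 0.0796.

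Apart from *Gapdh*, 9 members have annotated copies with at least 95% identity over at least 200 bases, and their summed mean FPKM was at most 5.51% of the member. *Hk2*, *Slc2a1* and *Pfkm* have none. Exons of 14 members lie under a gene on the opposite strand and those of 3 under a gene on the same strand, with the largest same-strand shares for *Pkm* (15.3%) and *Pfkm* (10.2%), and none for *Hk2*.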

How the data were processed

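Expression values were the FPKM deposited by the authors, 1 column per library. The submitters' processing notes name CASAVA 1.8, HISAT2 2.0.4 and HTSeq 0.9.1. The genome build, the annotation, the strand counted and the tool that gave FPKM are not given in the sources used here. Of 5235 gene spans in a further table of the authors, 91.8% equal those of GENCODE M21 (GRCm38), which was used for symbols and positions. Where a symbol had more than 1 identifier, that with the most transcripts was taken. Values were analysed as log2(FPKM + 1) with limma 3.58.1 (eBayes with a trend, two-sided) on the 6 libraries of each pair, with p adjusted by Benjamini-Hochberg over all 11450 genes whose mean FPKM reached 1. Shares within isoform families were compared by exact permutation. Members at an adjusted p of 0.05 or less, or with separate libraries and a log2 fold change of 1 or more in either direction, and then, up to 10, those with the smallest adjusted p taken in turn from each comparison with WT, are given in full, and of the pathway lists and macrophage markers the genes at that adjusted p. Results of 1 further marker list are not reported. Copies were searched with blastn 2.17.0+. The fit and the permutation test were tried on simulated data. Members and lists were chosen with earlier results of these data known.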

Additional observations from a re-analysis of the deposited data

How the results depend on the processing

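Each comparison was repeated with 12 other settings and without each of its 6 libraries. No member passed the stricter thresholds in any of them. In KO against WT no member reached an adjusted p of at most 0.05 in limma under any setting. In SHP099 against WT the count of 1 became 0 with no filter on low FPKM, where more genes are tested, 2 with median-of-ratios scaling (*Hk2* and *Slc2a1*), 0 with the replicate number as a block, and 0 to 5 with 1 library left out. With WT_2, KO_3 and SHP099_1 left out together, chosen after seeing the data, it was 0, and in KO against SHP099 it was 9. With 1 library left out the KO against SHP099 count was 0 to 8, and its member median relative to all genes, −0.03, ranged from −0.107 (without KO_3) to 0.0921 (without KO_2). The cause of these shifts was not tested. The member median relative to all genes in KO against WT, −0.10, was 0.01 with no filter, where the median of all genes was 0.03. In SHP099 against WT the median of all genes was 0.01 with no filter, against 0.13 with it. Replicate numbers were not treated as pairs. Only 4 of 9 same-number pairs of libraries had correlated residuals above 0.1, in a range of −0.43 to 0.49. Pairs of libraries with different numbers ranged from −0.63 to 0.54. With the block, *Hk2* in SHP099 had a limma adjusted p of 0.0621. With 3 libraries a group, the precision is set by the spread between them rather than by depth.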
